A study of Homo sapiens with 14 samples.

Results

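The regions that carried the SS18::SSX fusion protein after 24 h of WA-68 were compared with those that carried it after 12 h in HS-SY-II, a human synovial sarcoma cell line. The fusion was mapped by chromatin immunoprecipitation followed by sequencing (ChIP-seq) with an anti-HA antibody against an HA-tagged SS18::SSX. WA-68 is a PROTAC, a compound that directs its target to degradation, here BRD9, and was given at 100 nM. The series also holds fusion libraries from DMSO vehicle and from 48 h, and libraries of GLTSCR1, a subunit of the GBAF chromatin remodelling complex, from DMSO and 12, 24, 48 and 96 h. All groups share the cell line and the genotype, given as WT; how the tag was introduced is not given in the sources used here. No time is given for DMSO, and time in culture cannot be told apart from time in WA-68. Each group was 1 library, so there was no replicate error, no test was made between the times and no p-value is given.

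A region is a stretch called by the authors' peak caller on chromosomes 1 to 22, X and Y, with all summits of the same coordinates counted once. It was shared when a region of the other list overlapped it by at least 1 bp, and otherwise 24 h-only or 12 h-only. The 24 h list held 24846 regions over 30.3 Mb and the 12 h list 28619 regions over 36.4 Mb, of 183499 regions in the 9 peak lists of the series. Of the 24 h regions 6481, or 26.1% (95% interval 25.5 to 26.6), were 24 h-only, and of the 12 h regions 11577, or 40.5% (39.9 to 41.0), were 12 h-only. When a summit of the other list within 250 bp of the strongest summit was asked for in place of overlap, the shares were 43.6% at 24 h and 55.7% at 12 h. Intervals are exact Clopper-Pearson intervals and cover counting error only. Peak lists give no read depth; a region with no call lay below the calling threshold of its library, and the fusion may still have been there. Folds are the authors' enrichment of a summit over local background, and a fold from one list set beside one from another shows no change in binding.

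SS18 is a subunit of BAF complexes, which slide and evict nucleosomes with the energy of ATP, and in synovial sarcoma its gene is fused to an SSX gene. The SSX tail of the fusion binds nucleosomes whose histone H2A was ubiquitylated by Polycomb complexes, and the fusion is known for spreading over CpG islands of developmental genes that Polycomb keeps silent in other cells. BRD9 and GLTSCR1 are found in GBAF, the BAF form on which synovial sarcoma cells are known to depend.

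The start sites of 7 genes are shown as examples of promoters under fusion regions; most regions lay away from gene ends, and their sequence was not read. Each is 250 bases before to 50 bases after a RefSeq start site on GRCh38.p14, written 5′ to 3′ on the strand of the gene, and each overlapped a fusion region. Capitals mark CG dinucleotides, the pairs that make up CpG islands. The first 3 were met at 24 h and not at 12 h: COL25A1 (chr4:109302609-109302908, minus strand), which encodes a transmembrane collagen, ISL1 (chr5:51383198-51383497, plus strand), which encodes a LIM-homeodomain factor, and FOS (chr14:75278578-75278877, plus strand), which encodes an AP-1 factor.
COL25A1: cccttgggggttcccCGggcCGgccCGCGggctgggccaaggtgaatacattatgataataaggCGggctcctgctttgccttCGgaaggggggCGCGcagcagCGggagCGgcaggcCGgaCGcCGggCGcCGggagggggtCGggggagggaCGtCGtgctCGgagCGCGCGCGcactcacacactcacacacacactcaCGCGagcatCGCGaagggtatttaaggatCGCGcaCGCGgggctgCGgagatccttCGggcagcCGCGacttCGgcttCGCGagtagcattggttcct
ISL1: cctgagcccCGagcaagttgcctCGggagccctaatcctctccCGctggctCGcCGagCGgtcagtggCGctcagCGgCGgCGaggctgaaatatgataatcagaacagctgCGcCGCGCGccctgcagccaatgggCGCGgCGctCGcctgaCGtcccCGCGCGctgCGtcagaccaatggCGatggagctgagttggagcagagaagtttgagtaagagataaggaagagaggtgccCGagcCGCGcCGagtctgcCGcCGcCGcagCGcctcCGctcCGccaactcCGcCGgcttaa
FOS: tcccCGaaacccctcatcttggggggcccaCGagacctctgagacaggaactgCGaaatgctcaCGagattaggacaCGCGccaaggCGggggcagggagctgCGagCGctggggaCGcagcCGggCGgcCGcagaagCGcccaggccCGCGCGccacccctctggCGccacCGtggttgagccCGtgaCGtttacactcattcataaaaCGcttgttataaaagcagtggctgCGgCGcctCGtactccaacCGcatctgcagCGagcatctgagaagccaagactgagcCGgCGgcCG
The next 3 were met at 12 h and not at 24 h: RBL1 (chr20:37095948-37096247, minus strand), which encodes the pocket protein p107, EXOSC10 (chr1:11099820-11100119, minus strand), which encodes a nuclease of the RNA exosome, and JUN (chr1:58783998-58784297, minus strand), which encodes another AP-1 factor.
RBL1: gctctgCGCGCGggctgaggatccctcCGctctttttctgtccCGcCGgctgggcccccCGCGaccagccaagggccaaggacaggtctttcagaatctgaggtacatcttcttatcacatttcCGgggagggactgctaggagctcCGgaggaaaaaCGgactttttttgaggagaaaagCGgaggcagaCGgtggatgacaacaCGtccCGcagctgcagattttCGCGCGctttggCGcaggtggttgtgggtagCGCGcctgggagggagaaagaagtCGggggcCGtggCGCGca
EXOSC10: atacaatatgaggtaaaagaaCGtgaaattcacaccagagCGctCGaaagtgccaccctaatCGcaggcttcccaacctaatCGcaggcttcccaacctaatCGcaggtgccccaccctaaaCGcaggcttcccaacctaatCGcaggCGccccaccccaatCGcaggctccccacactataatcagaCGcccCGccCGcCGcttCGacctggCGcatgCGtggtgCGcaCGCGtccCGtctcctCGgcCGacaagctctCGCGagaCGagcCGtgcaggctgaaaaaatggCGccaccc
JUN: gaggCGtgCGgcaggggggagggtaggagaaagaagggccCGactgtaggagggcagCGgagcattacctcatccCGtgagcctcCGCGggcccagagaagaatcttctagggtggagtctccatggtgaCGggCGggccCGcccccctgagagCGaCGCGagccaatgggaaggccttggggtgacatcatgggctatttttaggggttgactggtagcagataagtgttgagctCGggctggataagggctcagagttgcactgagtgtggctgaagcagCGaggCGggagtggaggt
The last, IRX2 (chr5:2751628-2751927, minus strand), an Iroquois homeobox gene, lay in a wide region at both times.
IRX2: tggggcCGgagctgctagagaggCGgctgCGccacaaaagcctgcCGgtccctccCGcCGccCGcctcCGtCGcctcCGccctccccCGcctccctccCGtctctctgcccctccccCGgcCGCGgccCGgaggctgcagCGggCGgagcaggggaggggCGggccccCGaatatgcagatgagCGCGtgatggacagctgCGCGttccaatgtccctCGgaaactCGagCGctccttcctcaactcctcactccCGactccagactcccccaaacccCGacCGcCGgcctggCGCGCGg
CG pairs numbered 38 in COL25A1, 36 in ISL1 and 30 in FOS, against 25 in RBL1, 28 in EXOSC10 and 16 in JUN, with 34 in IRX2. The median over all 22198 listed start sites, of 15842 of the 20033 protein-coding genes, was 21, so 6 of the 7 lay above it and JUN below it. These 7 were picked by how the fusion was called at them, and their counts are a description.

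Over all listed start sites those met by the fusion were richer in GC than the rest. Start sites met by a fusion region at 24 h and not at 12 h (874) had a median GC share of 70.7%, those met at 12 h and not at 24 h (1094) 68.0%, those met at both times (1202) 69.0% and those met at neither (19028) 61.0%. The median number of CG pairs was 31, 28, 28 and 19 in the same order. GGGCGG, the GC box, searched on both strands, was in 80.2% (77.4 to 82.8) of the sites met at 24 h and not at 12 h, in 73.8% (71.1 to 76.4) of those met at 12 h and not at 24 h, in 73.5% of those met at both and in 56.3% of all listed sites. Other letters were found less often in the bound classes than over all sites. TGANTCA, the core letters of AP-1 sites, was in 4.00% of sites met at 24 h alone, 3.47% of those met at 12 h alone and 6.15% of all sites, and GATAA was in 8.47%, 11.5% and 18.6%. CANNTG, the E-box letters, was in 54.9%, 56.7% and 65.1%. Whether base composition or library preparation moved with these calls was not tested beyond these values.

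By their medians, regions found at one time only were weaker and narrower than shared regions, and the classes overlapped. The upper quartile of folds was 4.86 in 24 h-only and 4.70 in 12 h-only regions. The lower quartile in shared regions was 4.00 in the 24 h list and 4.07 in the 12 h list. The median fold was 4.17 in 24 h-only regions and 4.03 in 12 h-only regions, against 4.95 in shared regions of the 24 h list and 5.12 in shared regions of the 12 h list. Median widths were 424 bp in 24 h-only and 445 bp in 12 h-only regions, against 840 and 1010 bp in the shared regions of the 24 h and 12 h lists. A single summit made up 88.3% of 24 h-only and 85.6% of 12 h-only regions, and 49.5% and 43.0% of shared regions in the 24 h and 12 h lists. The caller's −log10 q had a median of 5.75 in 24 h-only and 5.91 in 12 h-only regions, where the lowest value deposited was 3.0, and of 9.45 and 10.8 in shared regions of the 24 h and 12 h lists.

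The share that was not called at the other time varied with strength in both lists. In the highest decile of folds within each list it was 0.765% (19 of 2485) for 24 h regions and 0.804% (23 of 2862) for 12 h regions. Among the weaker regions it was not ordered: the lowest decile had 33.8% at 24 h and 55.8% at 12 h, and the peak stood at 39.9% in decile 3 of the 24 h list and 61.0% in decile 2 of the 12 h list. By width the order held throughout, with 55.8% of the narrowest decile at 24 h and 72.0% at 12 h, and none of the widest decile in either list (0 of 2485 and 0 of 2862). A wider region meets the other list by 1 bp more easily, so the order by width follows in part from how the classes were set. How large that part is was not tested. The 12 h share stood above the 24 h share in deciles 1 to 9 of fold and of width.

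**Figure D1:**
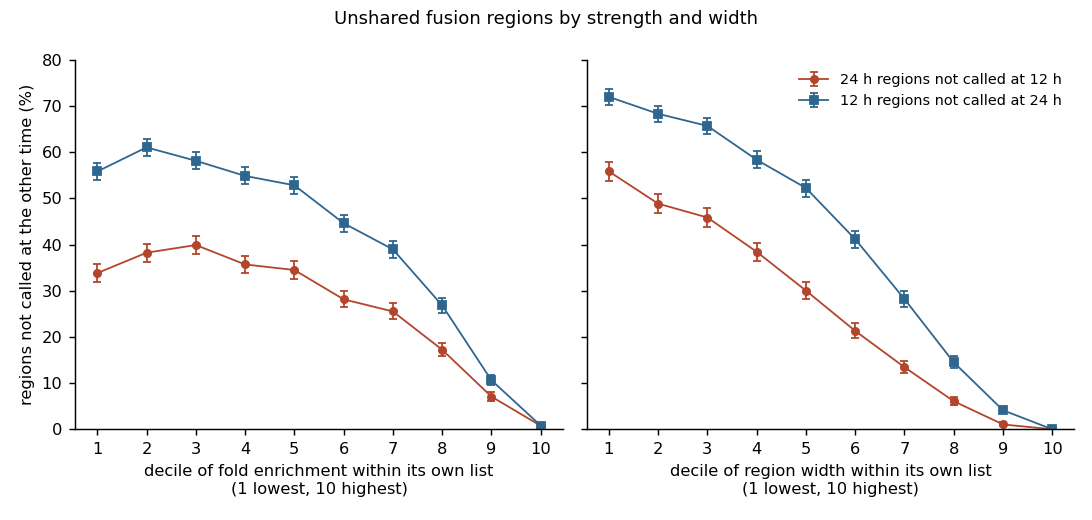
Share of fusion regions not called at the other time (vertical axis, %) by decile of fold enrichment (left) and of region width (right) within each list, for 24 h regions (red circles) and 12 h regions (blue squares); bars are 95% Clopper-Pearson intervals. Both curves drop to under 1% in the highest decile, and the 12 h curve lies above the 24 h curve in the weaker and narrower deciles.

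Many unshared regions lay close to a region of the other list. Of the 24 h-only regions 7.90% had a 12 h region within 100 bp, 31.2% within 500 bp and 45.9% within 1000 bp. Of the 12 h-only regions 4.82%, 22.2% and 37.0% had a 24 h region within those distances. On the other side of the limit, 3.38% of shared 24 h regions and 3.71% of shared 12 h regions overlapped by fewer than 100 bp. Counted in bases, 23.0 Mb were covered at both times, which is 75.7% of the 24 h bases and 63.0% of the 12 h bases, with 7.36 Mb covered at 24 h alone and 13.5 Mb at 12 h alone.

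Where both times had a call, the 24 h regions were on the whole the narrower. A shared 24 h region had a median of 89.8% of its bases within 12 h regions, and a shared 12 h region 75.8% within 24 h regions. There were 9240 pairs in which 1 region met exactly 1 region of the other list; their median width was 702.5 bp at 24 h and 817 bp at 12 h, and 59.8% were narrower at 24 h (median log2 ratio of 24 h over 12 h widths −0.15). In 58.7% of these pairs the strongest summits lay within 250 bp of each other. Regions wider than 5 kb numbered 799 at 24 h and 1205 at 12 h. None of them was unshared under the 1 bp overlap, which a wide region meets more easily. The wide 24 h regions had a median of 96.1% of their bases within 12 h regions and the wide 12 h regions 86.4% within 24 h regions, and 843 of the 1205 wide 12 h regions lay over 2 or more separate 24 h regions, against 439 of the 799 wide 24 h regions over 2 or more 12 h regions.

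The widest regions of the 24 h list were nearly filled at 12 h, in more pieces. They were picked as single wide calls at 24 h, so more pieces at 12 h follow in part from that choice. Over all wide regions, those of 12 h more often met 2 or more regions of the other list, as given above. A region of 47.7 kb at chr18:79416417-79464138, by NFATC1, which encodes a calcium-regulated transcription factor, met 2 regions at 12 h that filled 98.7% of it. At PDGFA, which encodes a growth factor ligand, and PRKAR1B, a region of 44.2 kb at chr7:513973-558205 met 10 regions at 12 h, which filled 94.2%. The region of MNX1, a motor neuron homeobox gene, was 36.5 kb wide at 24 h (chr7:156998223-157034741) and met 7 regions at 12 h over 93.4% of its bases. A region of 37.4 kb held INPP5A, NKX6-2, an oligodendrocyte homeobox gene, and CFAP46 at chr10:132778481-132815916, and was filled to 99.5% at 12 h.

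Of the wide 12 h regions, 27 of 1205 were covered to 50% or less at 24 h, and no wide 24 h region was so little covered at 12 h. The regions named next were chosen after their values were seen, from the least covered of each list. The least covered 12 h region lay within TRPS1, a GATA-type zinc-finger gene, and was 9.36% covered at 24 h, 99.3% in DMSO and 55.0% at 48 h. Within TBC1D5, a regulator of endosome traffic, a 12 h region of 7.12 kb at chr3:17637570-17644693 was 29.8% covered at 24 h, 55.4% in DMSO and 69.3% at 48 h. Within AKAP13, a kinase anchor gene, a 12 h region of 5.19 kb at chr15:85396640-85401831 was 32.6% covered at 24 h, 64.5% in DMSO and 53.8% at 48 h. A 12 h region of 8.45 kb within FOXP2, a forkhead gene of brain development, at chr7:114422220-114430666 was 34.7% covered at 24 h, 64.3% in DMSO and 46.3% at 48 h. Within PBX3, which encodes a HOX cofactor, a 12 h region of 6.41 kb at chr9:125850725-125857138 was 35.8% covered at 24 h, 75.4% in DMSO and 54.2% at 48 h. In all 5 the fusion was therefore still called over part of the region at 24 h. From the 24 h list, the least covered region, at TFF1, a trefoil factor gene (chr21:42362193-42367377), was 51.7% covered at 12 h. A region of 5.13 kb within SORCS2, a sorting receptor gene, at chr4:7522996-7528124 was 52.5% covered at 12 h, and a region of 6.81 kb by HCN2, which encodes a pacemaker channel, at chr19:588090-594902 was 55.4% covered.

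Gene ends were windows that reach 1 kb out of and into each of the 20033 protein-coding spans at both its ends. A larger part of the 24 h-only regions lay there, 22.7% (21.7 to 23.7), against 14.6% (14.1 to 15.2) of shared 24 h regions. In the 12 h list it was 15.6% (14.9 to 16.2) of 12 h-only and 16.4% (15.8 to 16.9) of shared regions. The difference between the unshared classes was also there among regions under 500 bp, with 21.7% of 24 h-only and 16.5% of 12 h-only regions. Shared regions of that width had 13.1% in the 24 h list and 17.4% in the 12 h list. Counted the other way, 35.3% (33.9 to 36.8) of the 24 h regions at gene ends were 24 h-only, 24.0% of those inside a gene span and 24.5% of those outside. The 12 h list had no such step: 39.3% at gene ends, 41.8% inside and 39.6% outside spans were 12 h-only. Where a listed start site gave the strand, 89.1% of the 24 h-only, 87.7% of the 12 h-only and 79.8% of the shared 24 h regions at a gene end lay at a 5′ end.

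The lists from DMSO and from 48 h, which the classes did not use, met the unshared regions far less often than the shared ones. A fusion region in DMSO overlapped 34.2% (33.1 to 35.4) of 24 h-only, 34.3% (33.4 to 35.2) of 12 h-only and 84.6% of shared 24 h regions. At 48 h the shares were 38.7% (37.5 to 39.9) of 24 h-only, 32.7% (31.9 to 33.6) of 12 h-only and 84.8% of shared regions. Shared regions were wider, and among regions under 500 bp the gap was smaller. There DMSO met 27.9% of 24 h-only, 25.9% of 12 h-only and 65.7% of shared 24 h regions, and 48 h met 31.1%, 24.5% and 64.1%. Seen in neither DMSO nor 48 h were 46.5% of 24 h-only and 51.1% of 12 h-only regions, against 6.93% of shared regions. On the other hand 1262 of the 24 h-only regions (19.5%) and 2102 of the 12 h-only regions (18.2%) were called both in DMSO and at 48 h. Of the 17170 DMSO regions that were met again at 48 h, 73.8% were called at 24 h and at 12 h, 6.86% at 24 h alone, 12.4% at 12 h alone and 6.98% at neither.

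Over regions of all widths GLTSCR1 was less often found at unshared than at shared regions, and which unshared class it met more often differed between its 24 h and 12 h lists. Its 24 h list overlapped 13.0% (12.2 to 13.9) of 24 h-only, 10.1% (9.61 to 10.7) of 12 h-only and 31.4% of shared 24 h regions. Its 12 h list overlapped 12.0% (11.2 to 12.8) of 24 h-only, 14.8% (14.2 to 15.5) of 12 h-only and 30.3% of shared regions. Among regions under 500 bp the shared regions stood closer, with GLTSCR1 at 24 h on 11.9% of 24 h-only, 8.58% of 12 h-only and 13.4% of shared 24 h regions. At that width GLTSCR1 at 12 h was on 11.4% of 24 h-only and 15.2% of shared 24 h regions. In the 12 h list it was on 13.5% of 12 h-only and 13.3% of shared regions, so there the classes were alike. Gene ends showed the widest gap: GLTSCR1 at 12 h was on 24.4% (22.3 to 26.7) of 24 h-only and 38.2% (36.0 to 40.5) of 12 h-only regions there, while GLTSCR1 at 24 h was on 18.9% (17.0 to 21.0) and 16.0% (14.3 to 17.8). Shared 24 h regions at gene ends carried GLTSCR1 in 33.6% at 24 h and in 40.6% (38.8 to 42.5) at 12 h, so the interval of the 12 h-only regions overlapped theirs at 12 h and lay below theirs at 24 h.

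**Figure D2:**
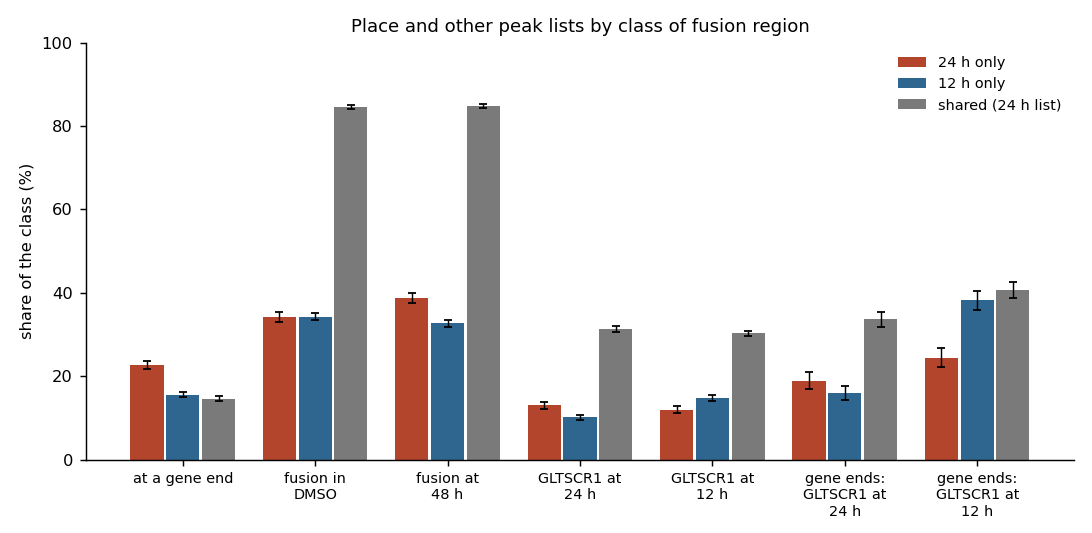
Share of each class of fusion region (vertical axis, %) that lay at a gene end, or that was overlapped by the fusion in DMSO or at 48 h or by GLTSCR1 at 24 or 12 h, with GLTSCR1 also for regions at gene ends; red is 24 h-only, blue 12 h-only and grey shared regions of the 24 h list, with 95% Clopper-Pearson intervals. The 24 h-only bar is highest for gene ends (22.7%), and shared regions stand above both other classes for every other list.

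Chromosomes differed in the share of 24 h-only regions, and those rich in genes stood higher. On chromosome 19 it was 42.6% (38.8 to 46.4), on 22 34.5%, on 1 31.4% and on 20 31.2%, against 18.4% (16.1 to 20.9) on 3, 20.6% on 4 and 20.7% on 18. The 12 h-only share took another order, with 49.1% on X, 47.5% on 3 and 45.9% on 4, against 29.1% on 20, 29.6% on 22 and 30.9% on 21. Across the 23 chromosomes without Y, Spearman's rho between genes per Mb and the 24 h-only share was 0.74, and 0.73 with regions at gene ends left out; for the 12 h-only share it was −0.29 and −0.41. These are descriptions over chromosomes of the same 2 libraries. Chromosomes 20, 21 and 22 were the ones where the 24 h-only share was not below the 12 h-only share, and on 19 they were alike (42.6% and 42.7%).

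**Figure D3:**
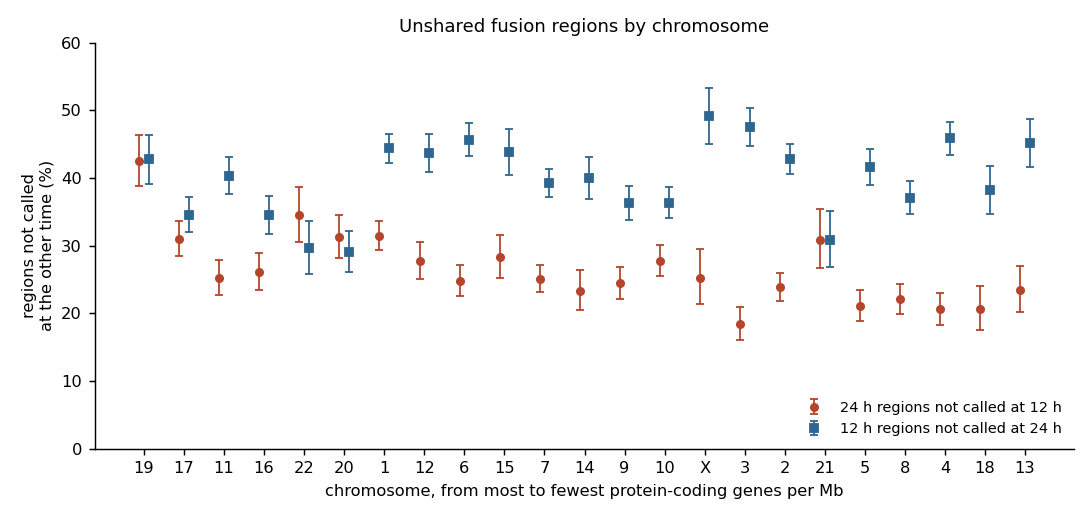
Share of fusion regions not called at the other time (vertical axis, %) on each chromosome but Y, ordered from most to fewest protein-coding genes per Mb; red circles are 24 h regions and blue squares 12 h regions, with 95% Clopper-Pearson intervals. The 24 h share runs from 42.6% on chromosome 19 down to 18.4% on chromosome 3.

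At the level of genes, 3325 protein-coding genes had a fusion region at an end at 24 h and 3721 at 12 h. Of all 20033 genes, 993 (4.96%) had one at 24 h and not at 12 h, 1389 (6.93%) at 12 h and not at 24 h, and 2332 (11.6%) at both times. Thus 29.9% (28.3 to 31.5) of the genes bound at 24 h were not bound at 12 h, and 37.3% (35.8 to 38.9) of those bound at 12 h were not bound at 24 h. A gene called at both times can have its strongest region at different places at 24 h and at 12 h. In 28 of the 993 and 41 of the 1389 the region itself met a region of the other list outside the window. DMSO cells had a fusion region at 36.8% of the 993, 36.1% of the 1389 and 84.8% of the 2332 genes. GLTSCR1 at 12 h was at 39.7% of the 993 and 54.7% of the 1389, while GLTSCR1 at 24 h was at 30.1% and 24.8%.

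Next come the genes called at 24 h and not at 12 h whose region met no 12 h region. Their highest 24 h folds lay well under the highest folds of genes called at both times. They were above 4.79, the median 24 h fold of all bound genes. SEMA6B, a semaphorin gene of axon guidance, led with a fold of 8.74 at chr19:4557989-4558933, and 6.12 at 48 h. COL25A1 had 8.50 at chr4:109302690-109303279 and 5.65 at 48 h. Its 24 h region overlapped the stretch printed above and lay upstream of the start site itself. RGS12, a regulator of G-protein signalling, followed with 7.78 at chr4:3438972-3439506 and was called in none of the other 3 fusion lists. Equal to it was SLC22A23, of the organic ion transporter family, with 7.78 and also 4.03 in DMSO and 5.88 at 48 h. MVB12B, an ESCRT subunit gene, had 7.65, with 5.08 in DMSO and 5.88 at 48 h. A region at chr9:128818382-128818813 with a fold of 7.53 lay at ENDOG, a mitochondrial nuclease gene, and at SPOUT1 and the readthrough KYAT1-SPOUT1, and had no call in DMSO or at 48 h. FOXD4L5, a forkhead gene with near-identical copies among which reads cannot be placed with certainty, had 7.52, and RASA3, which encodes a GTPase-activating protein for RAS, 7.35. Of these 8 genes or groups of neighbours, 2 were called in DMSO and 6 at 48 h.

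Genes called at 12 h and not at 24 h whose region met no 24 h region were led by CCDC88C, a regulator of WNT signalling, with a 12 h fold of 8.65 at chr14:91418455-91419728. RBL1 came next with 8.51 at chr20:37095917-37096329, PDCD1, which encodes the immune checkpoint receptor PD-1, with 7.66, and CAMK2N1, an inhibitor of CaM kinase II, with 7.17. BMP2K had 7.02, EXOSC10 6.92, the divergent pair ACP1 and SH3YL1 6.79, and the neighbouring genes EIF4A1, a translation initiation helicase gene, and SENP3 6.72. The fusion was called in DMSO at CCDC88C (3.87), RBL1 (4.86), CAMK2N1 (4.65), BMP2K (3.90), EXOSC10 (4.00) and EIF4A1 (6.10). At 48 h it was called at CCDC88C (5.44), CAMK2N1 (4.71) and the pair ACP1 and SH3YL1 (3.82), and not at the others. For CCDC88C and CAMK2N1 the 24 h list was thus the single fusion list without a call. GLTSCR1 was called at 12 h at CCDC88C (8.94), RBL1 (5.27), CAMK2N1 (4.95), BMP2K (9.87), EXOSC10 (4.95) and EIF4A1 (9.60), and at 24 h among these 6 at BMP2K (3.78) alone. SENP3, which shares the fusion region of EIF4A1, had GLTSCR1 both at 12 h (9.60) and at 24 h (5.27). PDCD1 had neither GLTSCR1 nor a further fusion call in the lists from DMSO and 48 h.

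The strongest genes of both lists were far above these. CFAP46, INPP5A and NKX6-2 share the region of 37.4 kb described above, with folds of 22.8 at 24 h and 22.7 at 12 h. GPER1, an estrogen receptor of the membrane, had 19.3 at 24 h and 15.2 at 12 h, MLC1 19.2 and 9.23, and its neighbour TTLL8, whose strongest 12 h region was another one, 19.2 and 10.9. KBTBD11 had 18.7 and 14.1. DLL1, a Notch ligand gene, and its neighbour FAM120B had 17.3 and 12.7. The uncharacterised LOC112268384 had 20.0 and 11.0, in separate regions, and LOC124904333 17.2 and 14.2. NKX2-2, a homeobox gene of the ventral neural tube, had a fold of 16.8 in a region of 12.1 kb at 24 h and of 8.18 in one of 5.66 kb at 12 h, with 15.9 in DMSO and 15.5 at 48 h. For all of these a fold above 7.81 at 24 h is in the highest decile of the list, and so is one above 7.93 at 12 h.

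Away from gene ends the strongest unshared regions had folds in the highest decile of their lists. The strongest 24 h-only one, at chr17:73998206-73999629, had a fold of 11.99 and lay 204 kb from RPL38; the fusion was called there in DMSO (6.34) and at 48 h (4.54). Another, 172 kb from BMP7 at chr20:56996136-56996849, had 9.38 at 24 h, 4.95 in DMSO and 5.43 at 48 h. The strongest 12 h-only one lay within SIPA1L1, a synaptic scaffold gene, at chr14:71621576-71622520 with a fold of 10.4, and had 6.79 in DMSO and 5.21 at 48 h. The next, within PPARGC1A, which encodes a coactivator of mitochondrial genes, at chr4:23972982-23974693, had 10.2 at 12 h, 8.65 in DMSO and 5.76 at 48 h. All 4 regions were thus missing from a single fusion list of the 4. The next 24 h-only regions, within FRMPD1 (8.95) and 131 kb from MRM1 (8.74), were called at 48 h and not in DMSO, and a further 12 h-only one, near CRYBG3 (10.1), was called in neither. The strongest shared region, within MCF2L at chr13:113063029-113071447, had folds of 56.4 at 24 h and 56.7 at 12 h.

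The known synovial sarcoma targets of the fusion were called at both times in 18 of 20 genes (90%, against 11.6% of all protein-coding genes) and at neither in 2, PDGFRA and TBX3. This list and those below were chosen with earlier results of these data known, so their shares are a description. Their median fold was 7.06 at 24 h and 7.80 at 12 h, where all bound genes had 4.79 and 4.55. NKX2-2, given above, MNX1 (12.6 at 24 h and 11.1 at 12 h), the homeobox gene UNCX (12.2 and 13.5) and the LIM-homeobox gene LMX1B (11.4 and 10.4) had the highest 24 h folds. TWIST1 and ZIC2 were chosen after their values were seen. TWIST1, which encodes a mesenchymal factor, had 5.44 at 24 h and 5.00 at 12 h. ZIC2, a zinc-finger gene of neural development, lay in a region of 18.0 kb at 12 h with a fold of 14.0, and in one of 3.86 kb at 24 h with a fold of 7.99. Of the 18 genes, 18 were also called in DMSO and 18 at 48 h.

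HOX genes, which set position along the body axis, were called at both times in 34 of 39 (87.2%, against 11.6% of all genes), with 2.56% at each time alone, against 4.96% of all genes at 24 h and 6.93% at 12 h. HOXD3 was called at 24 h alone (fold 5.83) and HOXD1 at 12 h alone (4.86), while HOXB1, HOXB13 and HOXD4 were called at neither. HOXD3 and HOXD1 were each called in DMSO and at 48 h too. In the HOXA cluster the fusion covered 65.8 kb in 20 regions at 24 h and 60.2 kb in 35 regions at 12 h, and the widest region was 27.9 kb at 24 h, reaching from HOXA7 to HOXA11, and 13.4 kb at 12 h, over HOXA9 and HOXA10. The other clusters went the other way: 53.1 kb at 24 h and 64.2 kb at 12 h in HOXB, 49.8 and 58.5 kb in HOXC, and 55.2 and 57.6 kb in HOXD. At the edge of HOXD, the region by EVX2 and HOXD13 was 7243 bp wide at 24 h and 18820 bp at 12 h, mostly or wholly outside the span over which the HOXD cover was counted. In DMSO the HOXA cover was 59.4 kb, with a widest region of 14.1 kb, and at 48 h 64.1 kb and 32.3 kb.

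Of 75 other developmental transcription factor genes, 57 (76%) were called at both times, 8 (10.7%) at 24 h alone and none at 12 h alone. Over all genes the shares were 11.6%, 4.96% and 6.93%. Most of the list was bound, and among bound genes calls at one time alone were fewer than over all genes. Of its 65 genes called at 24 h, 8 had no call at 12 h, against 29.9% of all genes called at 24 h. Of its 57 called at 12 h, all were called at 24 h, where 37.3% of all genes called at 12 h were not. IRX2 (16.2 at 24 h and 13.4 at 12 h), LHX2, a LIM-homeobox gene of the forebrain (12.6 and 7.87), the proneural gene NEUROG2 (11.7 and 11.8) and EVX2, the homeobox gene beside HOXD (10.7 and 21.3), had the highest 24 h folds among those at both. The 8 were TBX15, a T-box gene of the limb and skeleton, ISL1, FOXA2, a forkhead gene of endoderm, the proneural gene ATOH1, PITX1, which specifies the hindlimb, SHOX2, SIX3 and VAX1. ISL1 had a 24 h fold of 6.15 at chr5:51382941-51383707, over the start site printed above, with 4.05 in DMSO and 4.71 at 48 h. ATOH1 had 5.12 at 24 h, 4.70 in DMSO and 5.72 at 48 h, and PITX1 5.38, 3.61 and 5.65. All 8, named here beyond the rule for named genes, were called in DMSO and 6 at 48 h, so that for 6 of them the 12 h list was the single fusion list without a call. At TBX15 (6.77 at 24 h) and FOXA2 (5.60) the 24 h region met a 12 h region outside the window, and with windows of 3 kb, an alternative added after seeing the data, 3 genes (ATOH1, ISL1 and VAX1) were at 24 h alone. With −log10 q of at least 5 in both lists the counts were 10 at 24 h alone and 3 at 12 h alone.

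Immediate early genes, which encode factors induced within minutes of a stimulus, had the largest share at one time alone of the 14 lists, counted over all members. Of 20, 8 (40%) were called at both times, 7 (35%) at 24 h alone, 3 (15%) at 12 h alone and 2, ATF3 and DUSP1, at neither. Over all genes the shares were 11.6% at both times, 4.96% at 24 h alone and 6.93% at 12 h alone. Most of the list was bound, and of the 18 members called at either time 8 were called at both. That is near the 49.5% of all 4714 genes called at either time. Counted so, fewer were at both among ribosomal protein genes (3 of 12) and BAF, PBAF and GBAF subunit genes (3 of 11). The immediate early genes at 24 h alone were EGR3 (fold 5.12), FOSL2 (4.66), EGR1 (4.44), NR4A1 (4.14), FOS (4.06), JUND (3.61) and NR4A3 (3.44). The FOSL2 region met a 12 h region outside the window. All 7 are named, beyond the rule for named genes, and only EGR3 and FOSL2 of them lay above 4.65, the median fold of all 24 h regions. Those at 12 h alone were JUN (6.43), IER2 (4.74) and KLF2 (3.55). JUN was in no other fusion list, and its region at chr1:58783692-58784122 lay over the start site printed above. FOS, at chr14:75278255-75278710, had 3.73 in DMSO and 4.88 at 48 h. GLTSCR1 was at FOS with folds of 3.92 at 24 h and 22.2 at 12 h, at JUND with 10.3 and 20.3, and at KLF2 with 6.11 and 24.0, and at EGR1 at 12 h (10.1) and not at 24 h. KLF6 (6.40 at 24 h and 6.66 at 12 h), FOSL1 (5.38 and 7.66), IER3 (4.92 and 4.25) and JUNB (4.65 and 3.94) were called at both.

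**Figure D4:**
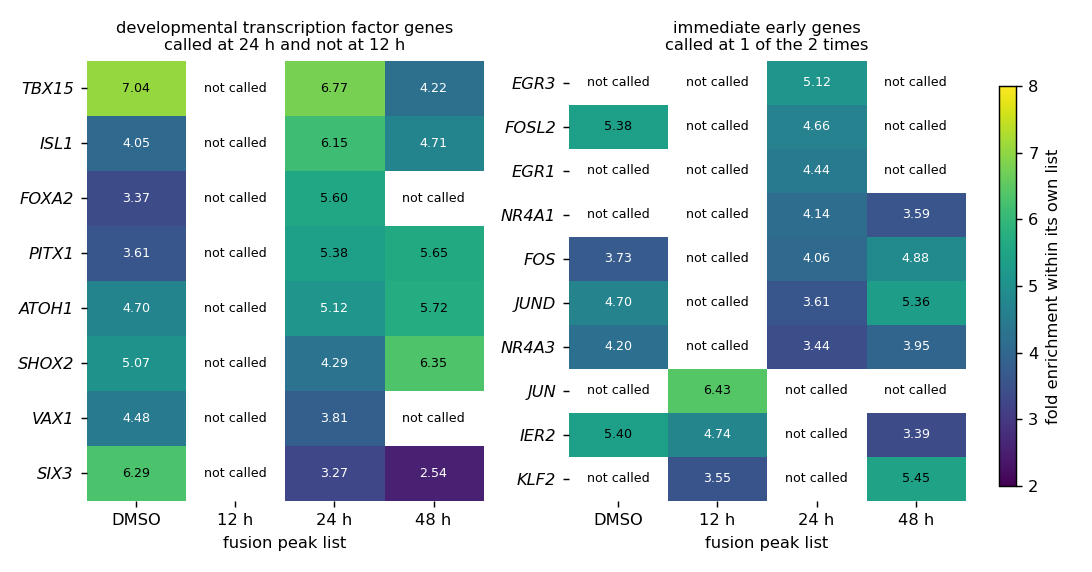
Fold enrichment of the strongest fusion region at an end of each gene in the 4 fusion lists (columns DMSO, 12 h, 24 h and 48 h); left, the 8 developmental transcription factor genes called at 24 h and not at 12 h, and right, the 10 immediate early genes called at one of the 2 times. Colour and figures give the fold within its own list, white cells were not called, and folds show no change between columns. The 8 genes on the left were all called in DMSO.

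Signalling genes were called at both times less often than the 3 groups of developmental genes above and more often than all genes (11.6%), by their counts. At one time alone, all genes had 4.96% at 24 h and 6.93% at 12 h. For FGF ligands and receptors 9 of 25 (36%) were at both times and none at 24 h alone. At 12 h alone were 2 (8%), FGF20 and FGFR1. The FGF20 region (10.3 at 12 h) met a 24 h region outside the window. FGFRL1, a decoy receptor gene, had 10.9 at 24 h and 5.49 at 12 h, and the ligand gene FGF19 9.73 and 6.77. FGFR2, FGFR3 and FZD10 were counted with the synovial sarcoma targets and were called at both times. For the other WNT ligands and FZD receptors 12 of 28 (42.9%) were at both. At 24 h alone were WNT3 (3.92) and FZD2 (3.38), 7.14% of the list. At 12 h alone were WNT6 (4.91), FZD4 (4.70) and WNT10A (4.50), 10.7% of it. The WNT10A region met a 24 h region outside the window. WNT7B had 11.7 at 24 h and 9.70 at 12 h, and FZD8 7.04 and 8.16. For BMP ligands and antagonists 11 of 20 (55%) were at both and none at 12 h alone. At 24 h alone were 2 (10%), CHRD (5.90), which encodes the antagonist chordin, and BMP8B (3.55). BMP5 had 10.7 at 24 h and 11.8 at 12 h. BMP4 had 8.69 at 24 h and 6.16 at 12 h, in separate regions.

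Genes of the remodelling complexes themselves were called at both times about as often as all genes. Of 29 BAF, PBAF and GBAF subunit genes 3 (10.3%) were called at both times, 3 (10.3%) at 24 h alone (SMARCB1 4.65, PHF10 3.39 and BCL7C 3.14) and 5 (17.2%) at 12 h alone (DPF2 4.95, SS18 4.50, DPF1 3.60, SMARCC2 and SMARCD2), against 11.6%, 4.96% and 6.93% of all genes. The 3 at both were the actin gene ACTB (7.08 at 24 h and 5.24 at 12 h), ARID1A (3.47 and 5.94) and BRD9, the target of WA-68 (3.25 and 4.50). The 24 h and 12 h folds of ACTB came from separate regions. BICRA, which encodes GLTSCR1, and SSX1 and SSX2 had no fusion region at an end at either time. Polycomb genes were at both times in 8 of 34 (23.5%), at 24 h alone in 2 (5.88%, near the 4.96% of all genes; PCGF1 3.76 and MTF2 3.75) and at 12 h alone in 7 (20.6%). BMI1, a PRC1 subunit gene, had 11.5 at 24 h and 8.63 at 12 h, and the chromodomain genes CBX8 (8.94 and 10.2) and CBX2 (5.61 and 5.06) were also called at both. The folds of CBX8 came from separate regions. Of the 7 at 12 h alone, BCOR, whose region met a 24 h region outside the window, had 5.96, PCGF6 5.84 and CBX7 3.80.

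Housekeeping and structural genes are set beside 11.6% of all genes at both times, 4.96% at 24 h alone and 6.93% at 12 h alone. Of 30 ribosomal protein genes 3 (10%) were at both, 5 (16.7%) at 24 h alone, among them RPL11 (6.09), RPL23 (5.77) and RPL32 (3.89), and 4 (13.3%) at 12 h alone, among them RPS9 (4.95) and RPL19 (3.92). Of 31 cell cycle and MYC genes 10 (32.3%) were at both, none at 24 h alone and 4 (12.9%) at 12 h alone, the cyclin genes CCND1 (4.65) and CCNE2 (3.77), E2F3 (3.92) and CDKN2B. Among those at both, the CDK inhibitor gene CDKN1B had 8.55 at 24 h and 4.81 at 12 h, and CDKN1C 6.57 and 5.37. Of 35 collagen chain genes 10 (28.6%) were at both, 2 at 24 h alone (COL25A1 8.50 and COL2A1 3.03) and 4 at 12 h alone, of which COL1A1 had 4.97 and the pair COL4A5 and COL4A6, which share a promoter region, 4.93. Of 30 neuronal adhesion and synapse genes 8 (26.7%) were at both, led by SLIT2 (10.0 at 24 h and 4.60 at 12 h), none at 24 h alone and 2 at 12 h alone, NRXN2 (4.21) and SLITRK5 (3.96). The 24 h and 12 h folds of SLIT2 came from separate regions. Keratin and other epithelial genes, markers of another cell type, were called in 1 of 20, OVOL1 (4.65 and 4.70), at both times, in separate regions.

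**Figure D5:**
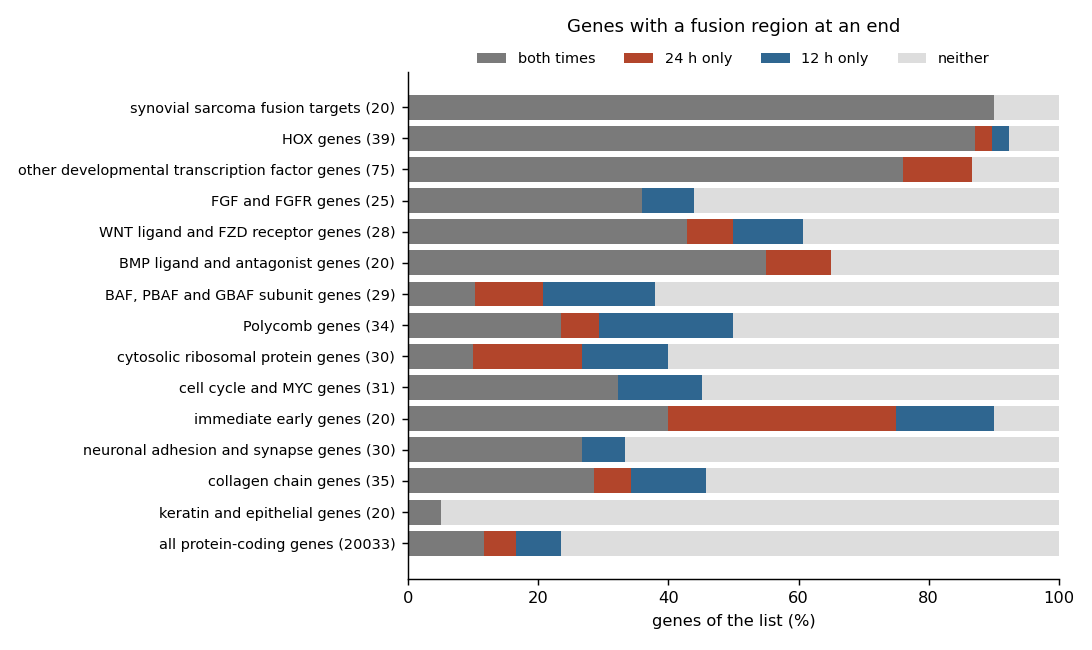
Genes with a fusion region at an end, as a share of each gene list (horizontal axis, %; list size in brackets): grey at both times, red at 24 h alone, blue at 12 h alone and light grey at neither, with all protein-coding genes in the lowest row. Synovial sarcoma targets and HOX genes are mostly grey (18 of 20 and 34 of 39), and immediate early genes have the largest red part (7 of 20).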

How the data were processed

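The fusion and GLTSCR1 peak lists, 1 per library, were used as the authors deposited them. Per the submitters' processing notes positions are on GRCh38 and the tools were BWA, MACS2, SAMtools, Picard, deepTools, bcl2fastq, FastQC, cutadapt and Trim Galore; no version, setting or peak-calling control is given in the sources used here. Each deposited peak carries a fold (a linear ratio over local background), −log10 p and −log10 q values from the authors' caller and a score; the score was not used. No deposited list has a −log10 q under 3.0. Peaks were called per library, per the peak names, so no replicate could be compared.

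Entries with equal coordinates were joined into 1 region with the values of its summit of highest fold. Overlaps, distances and shares were computed with Python 3.11.15, NumPy 2.4.6, pandas 2.3.3 and SciPy 1.17.1, and figures with matplotlib 3.10.9; the overlap code was tested on simulated data. Gene spans and start sites came from RefSeq tables (GRCh38.p14). A gene's fold is that of the strongest region that overlaps a window of 1 kb around either end, and that summit can lie outside the window. The folds of a gene in different lists can therefore come from separate regions. The 14 gene lists hold 436 genes, all matched by symbol. The members and lists were chosen with earlier results of these data known. The rule for named genes took the 8 genes of highest fold called at both times, at 24 h alone and at 12 h alone (those at one time alone with regions that met none of the other list), up to 4 members of each list called at both times and 3 in each other class, the 4 strongest regions of each class away from gene ends, the 4 widest shared regions, and BRD9, BICRA, SS18, SSX1 and SSX2. The alternatives were other overlap limits, thresholds, list lengths, window sizes and merged regions. Input reads were not analysed here.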

Additional observations from a re-analysis of the deposited data

How the results depend on the processing

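No setting turned the order of the 24 h-only share (26.1% as reported) and the 12 h-only share (40.5%). They were 33.3% and 46.9% with 50% or more of the shorter region overlapped, and 43.6% and 55.7% with summits within 250 bp. With −log10 q of at least 5 in the list counted they were 20.9% and 33.6%, with lists of equal length 29.5% and 36.3%, with regions within 500 bp merged 27.8% and 41.1%, and without regions over 5 kb 27.0% and 42.2%; with −log10 q of at least 5 in both lists the 12 h-only share was 39.5%. Gene ends held 17.2% of 24 h-only and 12.0% of 12 h-only regions with windows of 500 bp, and 32.2% and 22.5% with windows of 3 kb. With an overlap of at least 50%, the fusion in DMSO met 31.8% of 24 h-only, 29.7% of 12 h-only and 81.1% of shared regions, and the fusion at 48 h met 33.9%, 28.3% and 81.0%. Under the same setting GLTSCR1 at 24 h met 10.8% of 24 h-only and 8.25% of 12 h-only regions, and GLTSCR1 at 12 h met 9.70%, 12.2% and, of shared regions, 29.5%. With −log10 q of at least 5 in all lists GLTSCR1 at 24 h met 11.9% of 24 h-only, 10.8% of 12 h-only and 30.1% of shared regions; of shared regions GLTSCR1 at 12 h met 29.2% and the fusion at 48 h 85.5%. Without regions over 5 kb, shared regions were met by the fusion in DMSO in 83.9% and at 48 h in 84.1%, and by GLTSCR1 at 24 h in 29.2% and at 12 h in 28.2%. Among developmental transcription factor genes, 3 were at 24 h alone with windows of 3 kb; at 12 h alone there were 2 with windows of 500 bp and 3 with −log10 q of at least 5, settings added after the data were seen. Of 84 values under the alternatives, 44 stayed within the interval of the reported share or within 1.5 times the reported count and 40 did not. The cause of these shifts was not tested.

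No paired analysis was possible because each group was 1 library and the result comes from no test, and no replicate was there to leave out. The depth of the libraries is unknown.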
